A study of Homo sapiens with 3 samples.

Results

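The genes described here are 46 genes of the cell cycle, 19 that act at the G1/S transition and in DNA replication and 27 that act in G2 and mitosis (G2/M), among the 43317 gene names on a two-color Agilent array. They were chosen by name, and a probe was taken for a gene when the array's own annotation gave that name to a gene spot. Their RNA was measured in the prostate cancer line 22RV1, which makes SPINK1. The cells carried a lentiviral shRNA against SPINK1 (22RV1-shSPINK1, hairpins 1, 2 and 3), or a scrambled shRNA as control (22RV1-shSCRM). All lines were transduced and kept in medium with puromycin. There were 3 arrays, 1 for each hairpin line, each with shSPINK1 RNA in Cy5 and shSCRM RNA in Cy3. Whether a line was a single clone is not given in the sources used here. Values below are, unless another quantity is named, log2 ratios of shSPINK1 over shSCRM after background correction and loess normalization, so 0 stands for equal signal. No array had the dyes swapped, so an effect of a dye on a probe and an effect of the hairpins cannot be told apart. Whether the shSCRM RNA on the 3 arrays came from 1 extract is not given. The spread between shSCRM cultures may therefore not be part of any error.

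Dividing cells copy their genome in S phase and separate the copies in mitosis. Before S phase, CDK4 and CDK2 with their cyclins phosphorylate the retinoblastoma protein and release E2F transcription factors, which switch on the genes for the replication machinery, among them the MCM helicase and the enzymes that make nucleotides. Later in the cycle, FOXM1 and the MuvB complexes switch on the genes for mitotic entry, the spindle and the checkpoint. These waves of transcription make the levels of such genes a common readout of proliferation in tumor cells.

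For 30 of the 46 genes the mean log2 ratio lay within 0.2 of 0. The motor protein gene KIF11, the kinase gene CDK4 and the spindle checkpoint genes MAD2L1, BUB1B and CDC20 had the lowest mean log2 ratios among those that passed the test, from -0.50 to -0.31. The kinetochore motor gene CENPE, the helicase gene MCM3 and the thymidylate synthase gene TYMS had the highest, from 0.33 to 0.40. In such bulk RNA, fewer cells in a phase and less RNA per cell cannot be told apart. SPINK1 itself was at -3.71, -3.65 and -3.89 with hairpins 1, 2 and 3.

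All 46 genes were measured, and on each of the 3 arrays both channels were well above background for every one of them. By limma with Benjamini-Hochberg adjustment over 17061 genes, 8 of the 46 were lower (17.4%) and 5 higher (10.9%) at an adjusted p under 0.05, against 8.72% of all genes lower and 4.77% higher. With a mean log2 ratio beyond 0.5 also required, 1 gene was lower, KIF11, and 0 were higher, against 0.393% and 0.334% of all genes. At an unadjusted p under 0.05, 18 genes passed, against 29.8% of all genes. On all 3 arrays 19 genes were below 0 and 12 above 0, against 29% and 21.3% of all genes tested, and 15 had mixed signs. The 30 genes within 0.2 of 0 were 65.2% of the group, compared with 82.9% of all genes tested.

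These counts rested on which arrays were used. Without hairpin 1, 9 genes were lower and 6 higher. Without hairpin 2 there were 6 and 3, and without hairpin 3 there were 1 and 0, the lower gene being KIF11. Over all genes tested, the counts without hairpins 1, 2 and 3 were 1936, 610 and 290 lower and 1242, 432 and 176 higher. With the log ratios of the scanner software Feature Extraction in place of the background correction and loess used here, 0 of the 46 passed in either direction, and 3 genes of the whole array passed. KIF11 was the lower gene beyond 0.5 with all arrays, and without hairpins 1, 2 and 3 there were 3, 0 and 1 such genes.

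**Figure D1:**
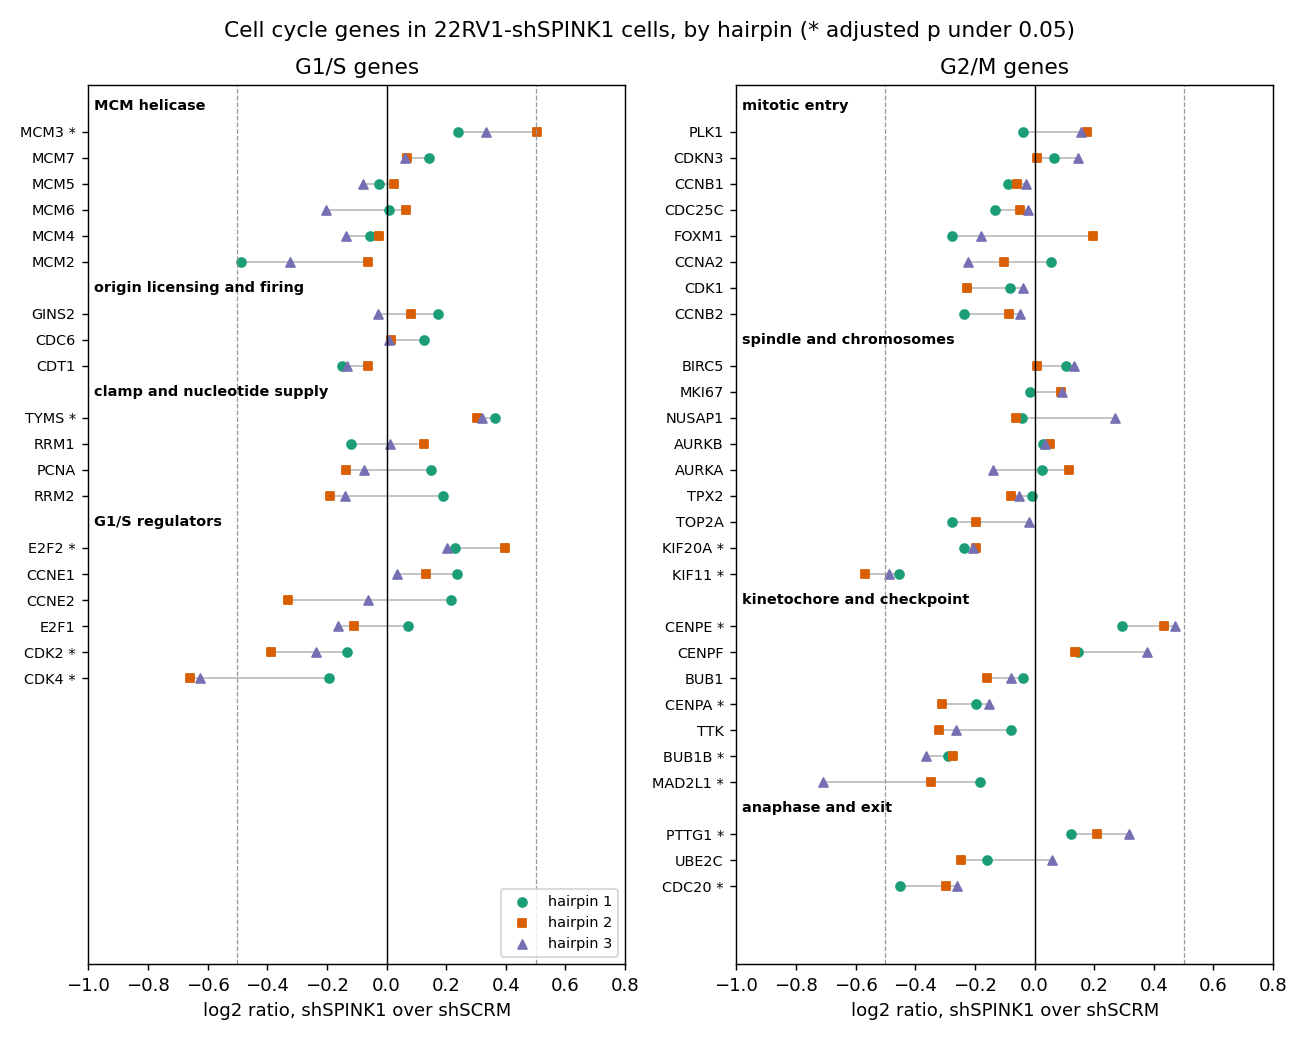
Log2 ratio of shSPINK1 over shSCRM (x axis) of each of the 46 genes (rows, grouped by role) with hairpin 1 (circles), hairpin 2 (squares) and hairpin 3 (triangles); dashed lines mark -0.5 and 0.5, and an asterisk marks an adjusted p under 0.05 by limma. KIF11, CDK4 and MAD2L1 lie farthest to the left and CENPE, MCM3 and TYMS farthest to the right.

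The replicative helicase, which unwinds DNA ahead of the polymerases, is a ring of MCM2 to MCM7. Of these 6 genes, MCM3 rose, with log2 ratios of 0.24 with hairpin 1, 0.51 with hairpin 2 and 0.33 with hairpin 3. Its mean was 0.36 ± 0.13 (SD, n = 3 arrays; adjusted p = 0.0156 by limma). MCM2 lay on the other side of 0 on every array, at -0.49 with hairpin 1, -0.06 with hairpin 2 and -0.32 with hairpin 3, and its mean of -0.29 did not pass (adjusted p = 0.055 by limma). The ring's other genes had means between -0.07 for MCM4 and 0.09 for MCM7, so its genes did not share a direction. The probe of MCM7 was the brightest used for the 46 genes, and its sign differed between processings, with a mean of 0.09 by normexp and loess and -0.16 by Feature Extraction, which differs in both background correction and normalization. Its other kept probe gave -0.01.

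The genes that load and fire the helicase at origins lay close to 0. CDC6 and CDT1, which license origins, had means of 0.05 and -0.12, and GINS2, a part of the active helicase, had 0.08. None of them passed the test. The probe of CDC6 was the dimmest of the 46, and the offset used in the background correction draws such ratios toward 0; the Feature Extraction mean was 0.19.

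Among the genes for the sliding clamp and for nucleotides, TYMS, which makes thymidylate, was close to the same value on every array. It was at 0.36 with hairpin 1, 0.30 with hairpin 2 and 0.32 with hairpin 3. Its mean was 0.33 ± 0.03 (SD, n = 3 arrays; adjusted p = 0.01 by limma). Its Cy5 brightness, the mean signal of the spot before any correction, was 5530, 4560 and 4200 for hairpins 1, 2 and 3. In Cy3 it was 5380, 5170 and 4930, so before correction Cy5 was the brighter channel with hairpin 1 alone. The value above 0 depended on the normalization. With arrays centred on their median without loess, the mean of TYMS was -0.0037. RRM1 and RRM2, the subunits of ribonucleotide reductase, and PCNA, the clamp that holds polymerases on DNA, had means of 0.01, -0.05 and -0.02. RRM2 was at 0.19 with hairpin 1, -0.19 with hairpin 2 and -0.14 with hairpin 3, so hairpin 1 lay above 0 and the other two below.

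PCNA was measured by 2 probes that gave different values, and their sequences are shown because they sample different stretches of the transcript (array annotation, hg19). The brighter lies within chr20:5095957-5096102 (- strand) and crosses an exon junction, since that span is longer than the probe, and the other lies at chr20:5098164-5098223 (- strand).
PCNA brighter probe: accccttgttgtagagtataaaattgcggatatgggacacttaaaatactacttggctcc
PCNA other probe: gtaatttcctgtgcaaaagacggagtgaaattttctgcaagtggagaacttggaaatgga
The brighter probe gave 0.15, -0.13 and -0.08 with hairpins 1, 2 and 3. The other gave -0.05, -0.34 and -0.35, a mean of -0.25. On both probes hairpin 1 was the highest of the 3 arrays, while the level of the whole series of values was lower on the dimmer probe.

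Of the regulators of the G1/S transition, CDK4, the kinase that pairs with D cyclins, fell. It was at -0.19 with hairpin 1, -0.66 with hairpin 2 and -0.63 with hairpin 3, which gave a mean of -0.49 with a 95% interval of -0.71 to -0.27 and an adjusted p of 0.0184 by limma. The Cy5 brightness of its probe at chr12:58142263-58142322 (hg19, - strand) was 3590, 1990 and 2160 beside 5180, 4460 and 4920 in Cy3. The log2 ratios with hairpins 2 and 3 lay below that with hairpin 1. CDK2, which pairs with cyclins E and A, also fell, at -0.13 with hairpin 1, -0.39 with hairpin 2 and -0.24 with hairpin 3 (mean -0.25, adjusted p = 0.0386 by limma). E2F2, an activating E2F factor, rose on every array, at 0.23 with hairpin 1, 0.40 with hairpin 2 and 0.20 with hairpin 3 (mean 0.28, adjusted p = 0.0242 by limma). E2F1 did not pass, with a mean of -0.07. The genes for cyclin E differed in pattern. CCNE1 was above 0 on each array, with 0.24, 0.13 and 0.04, while CCNE2 was at 0.22 with hairpin 1, -0.33 with hairpin 2 and -0.06 with hairpin 3, and neither mean (0.14 and -0.06) passed.

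Genes of mitotic entry had means close to 0, and 0 of 8 passed in either direction by limma. Of all genes tested, 8.72% passed as lower and 4.77% as higher, so few of any 8 genes would pass. CDK1, the mitotic kinase, had a mean of -0.12, and its cyclins CCNB1, CCNB2 and CCNA2 had means of -0.06, -0.12 and -0.09. CDK1, CCNB1, CCNB2 and CDC25C, the phosphatase that activates CDK1, were below 0 on all 3 arrays. PLK1, a kinase of mitotic entry and spindle assembly, and CDKN3, a phosphatase of CDKs, had means of 0.10 and 0.07. FOXM1, the transcription factor of G2/M genes, was among the most uneven of the 46 genes, at -0.28 with hairpin 1, 0.20 with hairpin 2 and -0.18 with hairpin 3. CCNB1 had a dimmer probe at -0.35, -0.35 and -0.14, below the -0.09, -0.06 and -0.03 of the brighter probe on every array.

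KIF11, also called Eg5, is the motor that pushes the spindle poles apart, and it had the lowest mean of the 46 genes. Its log2 ratios were -0.46 with hairpin 1, -0.57 with hairpin 2 and -0.49 with hairpin 3, which gave a mean of -0.50 ± 0.06 (SD, n = 3 arrays) and 0.705 of the shSCRM level, with a 95% interval of -0.62 to -0.39 and an adjusted p of 0.00618 by limma. The brightness was 415, 316 and 333 in Cy5 and 780, 710 and 721 in Cy3, for a probe at chr10:94414627-94414686 (hg19, + strand). The arrays were close to each other, and no array stood apart. KIF20A, a kinesin of the central spindle, fell by a smaller amount and as evenly, at -0.24 with hairpin 1, -0.20 with hairpin 2 and -0.21 with hairpin 3 (mean -0.21, adjusted p = 0.0313 by limma). The other 7 genes of the spindle and chromosomes did not pass. TOP2A, the topoisomerase that untangles sister chromatids, was below 0 on each array with a mean of -0.16, and TPX2, a spindle assembly factor, with -0.05. AURKA and AURKB, the Aurora kinases, and BIRC5, the survivin subunit of the AURKB complex, had means of 0.00, 0.04 and 0.08. AURKB varied least of all 46 genes between hairpins. MKI67, the gene of the proliferation marker Ki-67, was at -0.01, 0.09 and 0.09 on its brightest probe, a mean of 0.06. Its other 2 probes had means of 0.21 and 0.06. By Feature Extraction these probes had higher means, 0.10 on the brightest and 0.44 and 0.23 on the others. The deposited table gave MKI67 a mean of 0.26. NUSAP1, a microtubule-binding protein, lay above 0 with hairpin 3 alone, at 0.27 beside -0.04 and -0.06.

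The kinetochore and checkpoint genes did not share a direction. Of these 7 genes, 3 were lower (42.9%) and 1 higher (14.3%), against 8.72% and 4.77% of all genes tested. MAD2L1, which holds back anaphase until chromosomes attach, was at -0.18 with hairpin 1, -0.35 with hairpin 2 and -0.71 with hairpin 3 (mean -0.41, adjusted p = 0.0322 by limma). BUB1B, its partner BubR1 in the checkpoint complex, was at -0.29 with hairpin 1, -0.27 with hairpin 2 and -0.36 with hairpin 3 (mean -0.31, adjusted p = 0.0126 by limma). MAD2L1 was spread widely and BUB1B narrowly, and without hairpin 3 the mean of MAD2L1 was -0.27. CENPA, the centromeric histone, was at -0.20 with hairpin 1, -0.31 with hairpin 2 and -0.15 with hairpin 3 (mean -0.22, adjusted p = 0.0395 by limma). CENPE, the motor that carries chromosomes to the spindle equator, rose, at 0.29 with hairpin 1, 0.43 with hairpin 2 and 0.47 with hairpin 3 (mean 0.40 ± 0.09, SD, n = 3 arrays; adjusted p = 0.00857 by limma). Its probe was printed in 10 spots, and the log2 ratio of those spots had a standard deviation of 0.04 to 0.06 within an array. That is the spread of copies of 1 probe, and it holds no error from cultures, control RNA or dyes. CENPF, a large kinetochore protein, was above 0 on each array at 0.14 with hairpin 1, 0.14 with hairpin 2 and 0.38 with hairpin 3, but its mean of 0.22 did not pass (adjusted p = 0.0617 by limma). Its dimmer probe had a mean of 0.05. The checkpoint kinases TTK and BUB1 had means of -0.22 and -0.09 and did not pass.

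At anaphase, CDC20, which the checkpoint restrains and which activates the anaphase-promoting complex, fell with every hairpin, at -0.45 with hairpin 1, -0.30 with hairpin 2 and -0.26 with hairpin 3 (mean -0.34, adjusted p = 0.0142 by limma). PTTG1, or securin, the inhibitor of separase that this complex destroys, rose, at 0.12 with hairpin 1, 0.21 with hairpin 2 and 0.32 with hairpin 3 (mean 0.22, adjusted p = 0.0466 by limma). UBE2C, the ubiquitin-conjugating enzyme of the complex, had signs that differed between arrays and a mean of -0.12. The probes of these checkpoint and anaphase genes that fell are shown because each value rests on 1 stretch of 60 bases (array annotation, hg19). They lie at chr1:43826537-43826596 (+ strand) for CDC20, chr15:40512828-40512887 (+ strand) for BUB1B and chr4:120981346-120981405 (- strand) for MAD2L1.
CDC20 probe: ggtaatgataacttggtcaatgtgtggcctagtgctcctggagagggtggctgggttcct
BUB1B probe: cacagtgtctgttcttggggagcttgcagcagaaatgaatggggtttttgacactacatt
MAD2L1 probe: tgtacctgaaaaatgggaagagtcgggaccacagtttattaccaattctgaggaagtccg
None of the 13 genes that passed had another kept probe. Over the 9 members that had more than 1, there were 10 other kept probes, of which 8 had the sign of the probe used, with a median distance from it of 0.130 on the log2 scale.

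G1/S genes were then set against G2/M genes on each array. The median log2 ratio of the 19 G1/S genes was 0.12, 0.02 and -0.08 with hairpins 1, 2 and 3, and that of the 27 G2/M genes was -0.08, -0.08 and -0.04, while all genes tested had -0.02, -0.01 and -0.01. G1/S genes thus lay above G2/M genes by 0.20 with hairpin 1 and by 0.10 with hairpin 2, and the difference was -0.04 with hairpin 3. Its mean of 0.09 ± 0.12 (SD, n = 3 arrays) was smaller than its spread between arrays. With replication genes alone in the G1/S group, the differences were 0.20, 0.11 and -0.04. In the test of single genes, 2 of 19 G1/S genes were lower (10.5%) and 3 higher (15.8%). Of the 27 G2/M genes, 6 were lower (22.2%) and 2 higher (7.41%). Among all genes tested 8.72% were lower and 4.77% higher. On all 3 arrays 14 of 27 G2/M genes (51.9%) and 5 of 19 G1/S genes (26.3%) were below 0, against 29% of all genes tested. The difference between these shares was not tested. Where each array was centred on its median without loess, the median of all genes tested moved to -0.23, and those of G1/S and G2/M genes to -0.31 and -0.40.

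**Figure D2:**
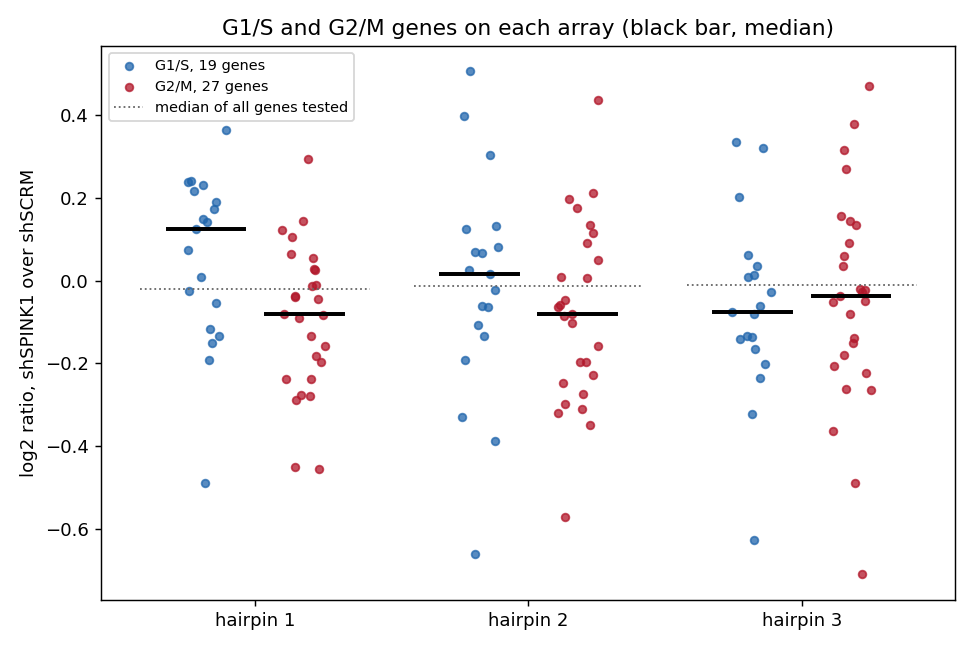
Log2 ratio of shSPINK1 over shSCRM (y axis) of the 19 G1/S genes (blue) and 27 G2/M genes (red) on each array (x axis), each point a gene, with black bars for group medians and dotted lines for the median of all genes tested. The G1/S median is 0.12 with hairpin 1, 0.02 with hairpin 2 and -0.08 with hairpin 3, and the G2/M medians lie between -0.08 and -0.04.

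Hairpin 1 was compared with the mean of hairpins 2 and 3 by a contrast in limma, in which the lone array is assumed to vary as the other two do. By this test 0 of the 46 genes passed after Benjamini-Hochberg adjustment, against 0.135% of all genes tested higher and 0.703% lower with hairpin 1, 0.838% in all. That share rested on the processing: 143 genes of the array passed here, 50 with median centring, 66 with no filter on dim probes, and 0 with no background correction, an offset of 10, Feature Extraction log ratios or the deposited table. At an unadjusted p under 0.05 there were 6, against 11.7% of all genes. The members at that level numbered 3 with no background correction or an offset of 10, 0 with Feature Extraction, 1 with the table, 11 with median centring and 13 with no filter. Of these, 5 were G1/S genes, and MAD2L1 was the G2/M gene. CDK4 had the greatest difference of these, 0.45 with a 95% interval of 0.22 to 0.68 (adjusted p = 0.105 by limma). The differences for CCNE2, RRM2, MAD2L1 and PCNA were 0.41, 0.36, 0.35 and 0.25, with adjusted p of 0.234, 0.217, 0.382 and 0.383 by limma. MCM2 differed by -0.29 (adjusted p = 0.397 by limma). Hairpin 1 was above the mean of the other two in 14 of 19 G1/S genes, with a median difference of 0.08, and in 11 of 27 G2/M genes, with a median of -0.04, compared with 48.6% of all genes. With median centring those medians were 0.23 and 0.10, so that of G2/M genes changed sign, and the median of all genes was 0.05. With Feature Extraction they were 0.14 and -0.05, and with no background correction 0.12 and -0.04. Hairpin 1 was the highest of the 3 arrays in 11 and the lowest in 4 of the 19 G1/S genes, and the highest in 6 and the lowest in 12 of the 27 G2/M genes, against 35.7% and 37.5% of all genes. CCNE2 had a second, dim probe whose values of 0.06, -0.10 and 0.00 kept the order of the hairpins over a smaller range. All 3 ratios are against shSCRM RNA, and the sources used here do not say whether it came from 1 extract. The ratios are therefore given side by side and no correlation between them is drawn.

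**Figure D3:**
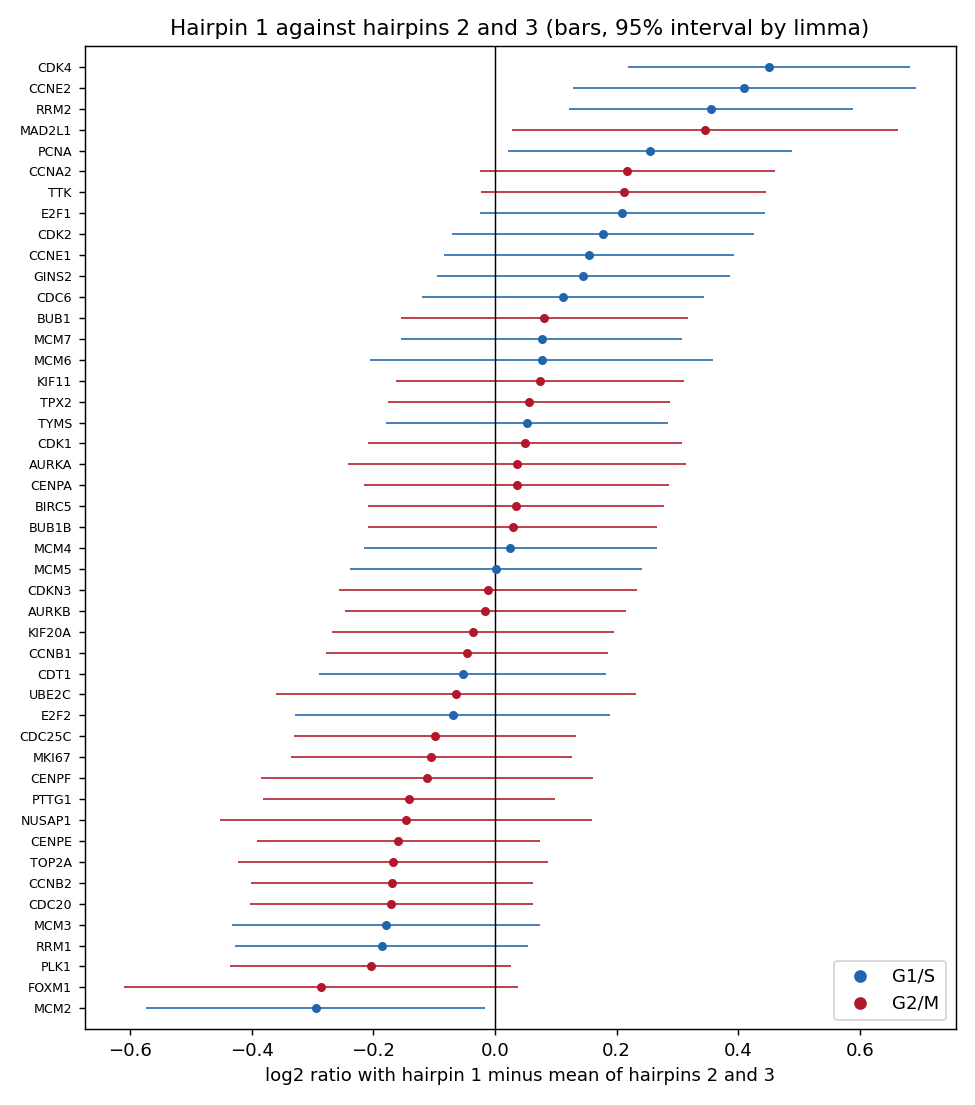
Log2 ratio with hairpin 1 minus the mean of hairpins 2 and 3 (x axis) for each of the 46 genes (rows, sorted), with 95% intervals by limma; blue marks G1/S genes and red G2/M genes. The intervals of CDK4, CCNE2, RRM2, MAD2L1, PCNA and MCM2 leave out 0 before adjustment for the number of genes tested.

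Start sites were examined for the sequence elements by which these genes are grouped in textbooks. A RefSeq window of 250 bases before to 50 after the start (GRCh38.p14) was held for 36 of the 46 genes; AURKA, BIRC5, CCNE2, CDK2, FOXM1, MCM4, MCM5, TPX2, TTK and UBE2C had none. The letters searched on both strands were TTTGAA, the CHR bound by MuvB complexes, CCAAT, the box bound by NF-Y, and TTTCCCGC, TTTGGCGC, TTTCGCGC or TTTGCCGC for E2F, and matches may overlap. The CHR letters were in 14 of 21 G2/M genes (66.7%) and 1 of 15 G1/S genes (6.67%), beside 18.2% of 27305 genes with a window. The E2F letters were in 11 of 15 G1/S genes (73.3%) and 3 of 21 G2/M genes (14.3%), beside 3.99% of all. CCAAT was in 90.5% of the G2/M genes, 60% of the G1/S genes and 39.7% of all. The 14 G2/M genes with the CHR letters had a median log2 ratio of -0.12, with 5 lower and 0 higher by the test. The 7 without had -0.06, with 1 lower and 2 higher. The 11 G1/S genes with E2F letters had a median of 0.05, with 0 lower and 3 higher, and the 4 without had -0.02, with 1 lower. Of all genes tested, with or without these letters, 8.72% were lower and 4.77% higher. Such counts were not made for other genes with these letters. The difference between genes with and without these letters was not tested.

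The 120 bases before the start are shown for 3 lower and 3 higher genes, KIF11, CDC20, BUB1B, CENPE, TYMS and E2F2, chosen after their values were seen to show windows with each kind of letters, with matches to any of these letters, on either strand, in capitals. They lie at chr10:92593010-92593129 (+ strand) for KIF11, chr1:43358861-43358980 (+ strand) for CDC20, chr15:40160949-40161068 (+ strand) for BUB1B, chr4:103198344-103198463 (- strand) for CENPE, chr18:657533-657652 (+ strand) for TYMS and chr1:23531234-23531353 (- strand) for E2F2.
KIF11: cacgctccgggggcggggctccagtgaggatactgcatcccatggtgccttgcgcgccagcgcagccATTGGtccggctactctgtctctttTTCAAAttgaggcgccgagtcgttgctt
CDC20: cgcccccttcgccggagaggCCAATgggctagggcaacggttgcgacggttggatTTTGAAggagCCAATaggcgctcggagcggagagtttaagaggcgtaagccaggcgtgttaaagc
BUB1B: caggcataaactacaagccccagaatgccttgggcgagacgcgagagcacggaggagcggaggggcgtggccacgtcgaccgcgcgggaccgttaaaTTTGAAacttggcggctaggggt
CENPE: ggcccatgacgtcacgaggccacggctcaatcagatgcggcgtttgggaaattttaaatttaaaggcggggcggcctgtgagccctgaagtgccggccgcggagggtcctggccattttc
TYMS: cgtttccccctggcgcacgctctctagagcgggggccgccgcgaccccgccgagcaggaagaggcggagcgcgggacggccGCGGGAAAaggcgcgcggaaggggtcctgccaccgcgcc
E2F2: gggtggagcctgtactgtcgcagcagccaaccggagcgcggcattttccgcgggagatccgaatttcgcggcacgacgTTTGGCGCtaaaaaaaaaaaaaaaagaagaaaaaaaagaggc
The windows of KIF11, CDC20 and BUB1B, which fell, held the CHR letters, and those of TYMS and E2F2, which rose, held E2F letters. That of CENPE, which rose, held none of the letters searched. As these genes were picked with their values known, no link of letters and direction can be drawn from them. Other genes went the other way. CENPF, at 0.22, held CHR letters, MCM2, at -0.29, held E2F letters, and KIF20A, which fell, held no CHR letters. A match is a description of the sequence and not of binding.

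Of the 5 genes that rose, MCM3, TYMS, E2F2 and PTTG1 were among the brightest 10% of genes tested, in which 320 genes were higher and 142 lower at an adjusted p under 0.05 by limma, and CENPE was not. The brightest 1 of 20 bins of genes had a median of 0.13. Of the G1/S genes 9 of 19 were in the brightest 10%, and of the G2/M genes 7 of 27. With Feature Extraction log ratios, the means were 0.48 for CENPE, 0.34 for MCM3, 0.24 for E2F2, 0.21 for TYMS and 0.05 for PTTG1. Those of the genes that fell furthest were -0.48 for KIF11, -0.49 for CDK4 and -0.43 for MAD2L1, close to the loess values. CDK2 was at -0.39, below its loess mean. The part of brightness in the higher values was not tested. Where arrays were centred on their median without loess, TYMS, E2F2 and PTTG1 had means of -0.0037, -0.07 and -0.10, above the median of all genes of -0.23.

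**Figure D4:**
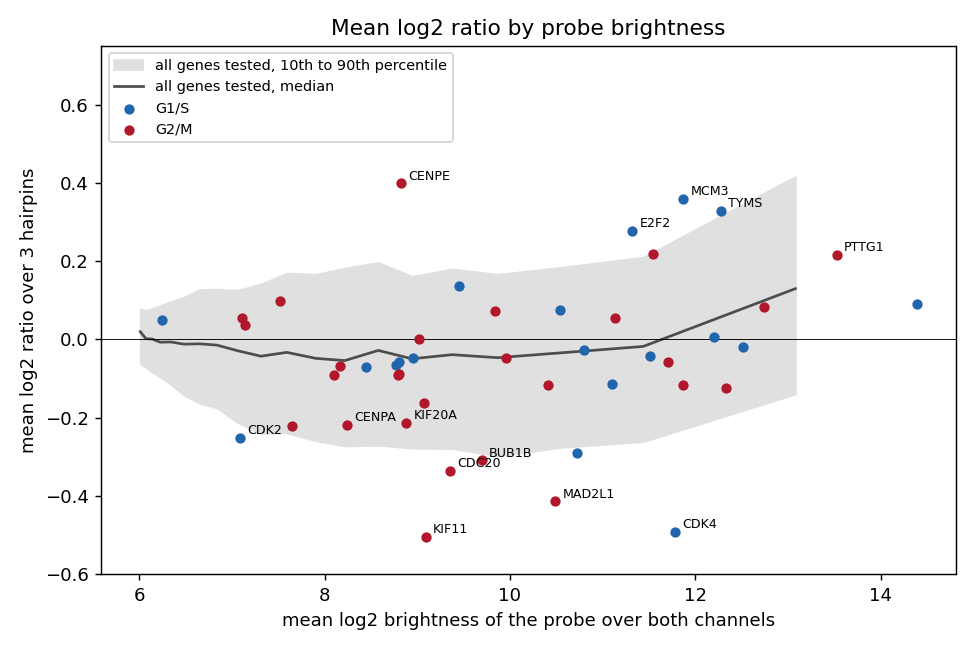
Mean log2 ratio over 3 hairpins (y axis) against the mean log2 brightness of the probe over both channels (x axis) for the 46 genes, G1/S in blue and G2/M in red, with the median (line) and the 10th to 90th percentile (grey) of all genes tested in bins of brightness; genes with an adjusted p under 0.05 by limma are named. The line reaches 0.13 in the brightest bin, where TYMS and PTTG1 lie, while KIF11, MAD2L1 and CDK4 lie below the grey band. Others outside the band include CDC20 and CDK2 below it and CENPE, MCM3 and E2F2 above it.

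**Figure D5:**
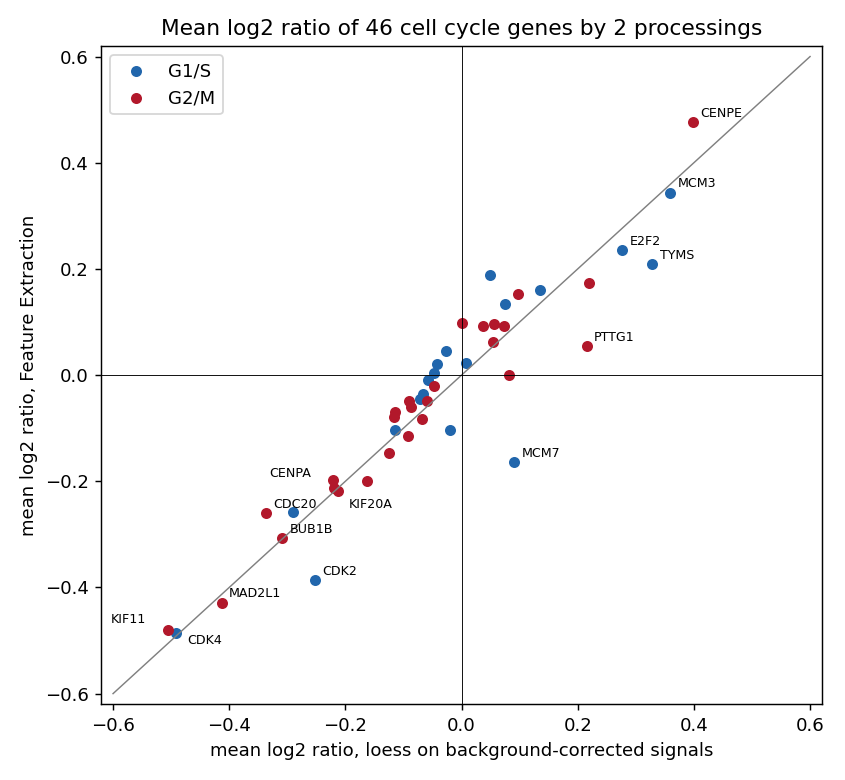
Mean log2 ratio of each of the 46 genes by loess on background-corrected signals (x axis) and by Feature Extraction (y axis), with G1/S genes in blue, G2/M genes in red and the line of equal values in grey. Genes that passed by loess, and MCM7, are named; MCM7 lies at 0.09 by loess and -0.16 by Feature Extraction.

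Further genes of the cycle, outside the 46, were counted in the same fit. Of 50 further replication genes, all measured, 8 were lower (16%) and 4 higher (8%) at an adjusted p under 0.05 by limma. Of all genes tested, 8.72% were lower and 4.77% higher. The replication genes had a median log2 ratio of -0.02. POLD1, the catalytic subunit of DNA polymerase delta, and POLE3, a small subunit of polymerase epsilon, fell (-0.34 and -0.31), and MCM8, a helicase of repair, and TIPIN, a replication fork protein, rose (0.29 and 0.29). Of 84 further mitosis genes, 79 were measured, with 11 lower (13.9%), 5 higher (6.33%) and a median of -0.02. CENPH, of the inner kinetochore, and KIF2C, a microtubule depolymerase, fell (-0.38 and -0.34), and ANAPC11, a subunit of the anaphase-promoting complex, and KIF14, a kinesin of cytokinesis, rose (0.32 and 0.28). ANAPC11 was at -0.02 by Feature Extraction. Neither list held a gene beyond 0.5 that passed. Without hairpins 1, 2 and 3, the lower replication genes numbered 13, 3 and 0 and the higher 5, 1 and 0, and the lower mitosis genes numbered 11, 2 and 1 and the higher 8, 3 and 0.

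Of 41 listed inhibitors of CDKs and regulators of G1, 39 were measured and had a median log2 ratio of -0.08. Of these, 8 were lower (20.5%) and 1 higher (2.56%) at an adjusted p under 0.05 by limma, against 8.72% and 4.77% of all genes. Without hairpins 1, 2 and 3, the lower genes numbered 13, 2 and 4 and the higher 0, 2 and 0. On all 3 arrays 20 were below 0 (51.3%) and 3 above (7.69%), against 29% and 21.3% of all genes tested. E2F5, a repressive E2F factor, was even over the arrays, at -0.41, -0.45 and -0.44 (adjusted p = 0.00619 by limma), and E2F8, an atypical repressor of E2F targets, rose at 0.52, 0.16 and 0.22 (adjusted p = 0.042 by limma). E2F7, its relative, had a mean of 0.21 and did not pass. CDKN1C, the CDK inhibitor p57, was at -1.16 with hairpin 1, -0.54 with hairpin 2 and -0.10 with hairpin 3, and its mean of -0.60 ± 0.53 (SD, n = 3 arrays) did not pass (adjusted p = 0.0568 by limma). It was lower with hairpin 1 than with hairpins 2 and 3, with a difference of -0.84 and an adjusted p of 0.0443 by limma, and was the single gene of this list to pass that contrast. It did not pass with no background correction, an offset of 10, median centring, no filter on dim probes, Feature Extraction log ratios or the deposited table, where the adjusted p by limma was 0.281, 0.325, 0.0609, 0.184, 0.652 and 0.674.

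As a check of the labelled cell type, all 13 listed markers of prostate epithelium were measured, 12 of them brighter than the median gene tested. Their median log2 ratio was -0.23, and 4 were lower (30.8%) and 1 higher (7.69%) by limma, against 8.72% and 4.77% of all genes. TMPRSS2, an androgen-regulated protease, fell (-0.42) and KRT18, a luminal keratin, rose (0.35), while HOXB13 and ACPP, at -0.36 and 0.07, did not pass. Of 14 markers of stroma, endothelium and leukocytes, 8 were above background in a channel on all arrays, 1 of them brighter than the median gene tested. The 8 were COL1A1, DCN, LUM, ACTA2, VWF, CDH5, PTPRC and CD14. By the test of the ratios 0 of these 8 passed, but a ratio of shSPINK1 over shSCRM does not show which cell types are present. COL1A2, COL3A1, PDGFRB, PECAM1, CD3E and CD68 were the 6 not above background. The arrays held 60901 gene spots each, of which 41.3% to 46.8% were well above background in Cy5 and 38.8% to 42.6% in Cy3.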

How the data were processed

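For each array the authors deposited scanner files with raw Cy5 and Cy3 intensity and local background per spot. These deposited files also hold a log10 ratio of the channels, Cy5 over Cy3, computed by Agilent's Feature Extraction. They also deposited a table of log2 values, 1 per gene name and array. The study's methods state Lowess normalization, a false discovery rate under 0.05 and a log2 fold change beyond 0.5. For its list of downregulated genes the study gives that fold change with a confidence interval, a rule that was not used here.

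Intensities were processed in R 4.3.3 with limma 3.58.1 by normexp background correction with an offset of 50, removal of control spots and of spots flagged as outliers (0.203% of values), loess within each array and averaging of the spots of a probe. Probes were kept when all 3 arrays showed them well above background in the same channel, either Cy5 or Cy3 (21442 of 58201), and the brightest kept probe stood for a gene. The mean log2 ratio was tested against 0, and hairpin 1 against hairpins 2 and 3, by moderated tests in limma, adjusted by Benjamini-Hochberg over 17061 genes. The labels name no separate cultures per hairpin, so p-values measure the spread between 3 arrays of different hairpins, and the number of arrays limits the precision. The moderated tests were also run on simulated log2 ratios. No such run is reported for background correction, loess, the filter or the choice of probe. No result of the simulation is given here, so it does not show whether changes as small as those described would be detected.

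All 46 genes are named. Values per hairpin are given for those with an adjusted p under 0.05, the 6 highest and 6 lowest means and the 4 that differed most between hairpin 1 and the others, and for other lists the 2 highest and 2 lowest means where no gene passed beyond 0.5. A few further values were added after they were seen. The genes, phase groups and lists were chosen with earlier results of these data known. Alternatives covered background correction, normalization, source of values, filter, probe rule, test, threshold, phase group and each array left out.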

Additional observations from a re-analysis of the deposited data

How the results depend on the processing

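SPINK1 passed under all 11 alternatives, between -4.09 and -3.68. The mean difference between G1/S and G2/M medians stayed above 0 under the alternatives run, at 0.03 to 0.15 when each array was left out. The arrays did not share this direction. With hairpin 3 the difference was below 0 under every alternative that kept that array. The mean of 0.09 with all arrays was smaller than its SD of 0.12. An offset of 10 gave 5 lower and 3 higher of the 46 genes at an adjusted p under 0.05, and 2 lower beyond 0.5. Median centring gave 39 lower, 0 higher and 10 lower beyond 0.5, beside 10339 lower and 91 higher of all genes, medians of -0.31 for G1/S and -0.40 for G2/M genes, and 1 gene, CDK4, past the contrast of hairpin 1; it turned TYMS to -0.0037, E2F2 to -0.067 and PTTG1 to -0.10. Feature Extraction log ratios, the deposited table and a one-sample t-test each gave 0 lower and 0 higher. At an unadjusted p under 0.05 there were 11 genes with the log ratios and 12 with the table, against 18. With no limit on size the counts beyond 0.5, 1 lower and 0 higher, became 8 and 5. No background correction put the G2/M median at -0.041. Leaving out each array gave 1 to 9 lower and 0 to 6 higher genes, 0 to 3 lower beyond 0.5, and medians of -0.03 to 0.07 for G1/S and -0.08 to -0.06 for G2/M genes. For further replication genes, no background correction, an offset of 10, median centring and averaging a gene's probes gave 4, 2, 40 and 5 lower, the offset and centring gave 1 and 0 higher, centring gave a median of -0.36, and leaving out an array gave 0 to 13 lower and 0 to 5 higher. For further mitosis genes, the same settings except the mean of probes gave 6, 3 and 59 lower, the offset, centring and the mean of probes gave 1, 0 and 3 higher, the median was -0.32 with centring and 0.027 with the table, and leaving out an array gave 1 to 11 lower and 0 to 8 higher. For inhibitors and G1 regulators, the offset and centring gave 4 and 33 lower, centring and no filter on dim probes gave 0 higher, the median was -0.40 with centring, -0.046 with Feature Extraction and -0.04 with the table, and leaving out an array gave 2 to 13 lower and 0 to 2 higher. In these lists too, Feature Extraction and the table gave 0 in both directions. The cause of these changes was not tested. The contrast of hairpin 1 had no value without hairpin 1 and no residual degrees of freedom without hairpin 2 or 3. No paired analysis was possible because all arrays belong to 1 group and each already compares both RNAs. A block for slide or scan was not run, since the arrays shared 1 slide and 1 scan.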
